A study of Mus musculus with 21 samples.

Results

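The genes described here are those encoded by mitochondrial DNA. They were taken as every gene placed on chrM in both count tables, which gave 35 of the 51559 features listed, 13 mRNA genes and 22 tRNA genes. The mitochondrial rRNA genes were not among them, because rRNA had been taken out of the annotation before counting. The question was how these genes behaved in nascent RNA, in total RNA and in the ratio of total over nascent RNA when the RNA helicase DDX6, a cytoplasmic factor of mRNA repression and decay, was missing.

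The cells were V6.5 mouse embryonic stem cells (ESCs) grown in serum with LIF and 2i (PD0325901 and CHIR99021), either wild-type (WT, 3 replicates) or *Ddx6* KO (4 replicates, 2 from each of 2 CRISPR clones). All cells, wild-type included, received 500 µM 4-thiouridine (4sU) for 30 min, and the RNA of each replicate was then split. One portion was biotinylated and pulled down on streptavidin to give the 4sU-labeled, nascent RNA, and the other was depleted of rRNA and sequenced as total RNA. Each nascent library was sequenced first with single-end reads and again with paired-end reads, and the counts of both runs were summed. The labels number the replicates without saying whether they were separate cultures, so the p-values below measure the spread between these samples, and the KO replicates come from only 2 clones.

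Depth ranged from 2441639 to 3570192 counts in the nascent libraries and from 5724179 to 7369651 in the total libraries, so that 3 counts corresponded to at most 1.23 and 0.524 CPM (counts scaled to the total of the library). *Ddx6* itself stood between 314 and 363 CPM in WT total RNA and between 22.5 and 70.7 CPM in KO total RNA (log2 fold change -3.12 ± 0.32 SE, adjusted p = 9.2e-06, edgeR). In nascent RNA, *Ddx6* read 225 to 251 CPM in WT and 155 to 245 CPM in KO. The 8 ESC markers examined were all measured, with a summed total RNA level of 3810 to 3840 CPM in WT and 4530 to 4770 CPM in KO. The 7 fibroblast markers summed to 3.14 to 5.34 CPM in WT and 11.3 to 13.1 CPM in KO, with *Postn* at 0 in all libraries. The 6 primitive endoderm markers summed to 8.09 to 13.3 against 12.6 to 19 CPM, the 5 primed or neural markers to 29.8 to 32.5 against 17.9 to 19.5 CPM, and the 4 trophoblast markers to 13.9 to 18.6 against 14.1 to 19.7 CPM. Single markers differed more than these sums show. In mean total RNA CPM, *Dppa5a* fell from 455 to 282 and *Nanog* rose from 593 to 995 among the ESC markers. *Otx2*, of the primed or neural list, fell from 12.6 to 2.39, and *Thy1*, of the fibroblast list, rose from 2.37 to 7.41. Whether these differences in markers contribute to the results below was not tested.

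Mitochondrial DNA is transcribed from both strands as long polycistronic precursors by the dedicated polymerase POLRMT. Most mRNAs are bordered by tRNAs, which are cut out by RNase P at their 5′ ends and by ELAC2 at their 3′ ends, so that the tRNAs punctuate the release of the mRNAs and rRNAs. The mRNAs encode core subunits of the respiratory chain, are bound and stabilized by LRPPRC and SLIRP, and are degraded inside the organelle by the helicase SUPV3L1 and the nuclease PNPT1, apart from the cytoplasmic decay machinery to which DDX6 belongs.

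By position, 12 of the 13 mRNA genes and 14 of the 22 tRNA genes were annotated on the plus strand (RNA copied from the heavy strand), whereas mt-Nd6 and 8 tRNA genes were on the minus strand (RNA copied from the light strand). All 35 positions were the same in the mm10-based Gencode release used for reference. A filter of 3 CPM in at least 3 libraries was passed by 19 of the 35 genes, 7 mRNAs and 12 tRNAs. The mRNAs were mt-Nd1, mt-Nd2, mt-Nd4, mt-Nd5 and mt-Nd6, which encode subunits of complex I, mt-Cytb, the cytochrome b subunit of complex III, and mt-Co1, the catalytic subunit of complex IV. The remaining 6 mRNAs and 10 tRNAs did not pass.

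The genes without counts lay together. From mt-Ts1 to mt-Nd4l (chrM:6870-10173), 11 genes, 6 of them mRNAs and 5 tRNAs, held 81 counts in all 14 libraries combined, with no count in total RNA, 2 counts in the single-end nascent reads and 79 in the paired-end run. The highest count of any one of these genes in a library was 7. The 6 mRNAs were mt-Co2 and mt-Co3, which encode subunits of complex IV, mt-Atp6 and mt-Atp8 of the ATP synthase, and mt-Nd3 and mt-Nd4l of complex I. Only reads that mapped to a single place were counted, and 13 annotated nuclear genes, most of them labeled unprocessed pseudogenes, share stretches of 50 bases or more with mitochondrial mRNAs. Nuclear copies of mitochondrial DNA are a known feature of mammalian genomes.

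The largest run of these copies lay on chr1. The pseudogenes Gm28661, Gm10925, Gm28437, Gm28438, Gm10222, Gm28439 and Gm29216 cover the mitochondrial genes from the end of mt-Co1 to the first part of mt-Nd4. Aligned without gaps, Gm28661 was identical to mt-Co2 over 681 bases, Gm10925 to mt-Atp6 over 678, Gm28437 to mt-Co3 over 783 and Gm10222 to mt-Nd4l over 294 bases. Gm28438 differed from mt-Nd3 at 1 of 345 positions (T3C, counted from 1 at the start of mt-Nd3), and Gm29216 differed from the end of mt-Co1 at 6 of 492 positions, all within the first bases of the copy. The 30 bases that hold each difference are shown to make plain how little separates the mitochondrial gene from its nuclear copy, with the differing bases in capitals, first for mt-Nd3 (chrM:9459-9488, plus strand) and Gm28438 (chr1:24613090-24613119, minus strand), then for mt-Co1 (chrM:6381-6410, plus strand) and Gm29216 (chr1:24616168-24616197, minus strand), all mm10.
mt-Nd3: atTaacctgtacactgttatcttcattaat
Gm28438: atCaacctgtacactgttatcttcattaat
mt-Co1: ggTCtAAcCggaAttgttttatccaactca
Gm29216: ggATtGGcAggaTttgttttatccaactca

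Counted over all windows of 50 bases, 100% of the windows of mt-Co2, 99.9% of mt-Co3, 99.5% of mt-Atp6, 98.8% of mt-Nd4l and 98.0% of mt-Nd3 had an exact match in an annotated nuclear transcript. Among the mRNAs that passed the filter the share was 62.2% for mt-Nd4, 51.1% for mt-Co1, 8.19% for mt-Nd2 and 7.61% for mt-Nd5, and no window of mt-Nd1, mt-Nd6 or mt-Cytb had such a match. mt-Atp8 and the 5 tRNAs of the stretch had no match among annotated transcripts, yet held 1 count between them, and unannotated copies were not examined. For mt-Co2, mt-Co3, mt-Atp6, mt-Nd4l and mt-Nd3 a count near 0 is thus no measure of expression. For mt-Atp8 and the 5 tRNAs the reason for the low counts was not tested, and these counts are not read as expression either. The counts of mt-Co1 and mt-Nd4 leave out reads that also matched a copy. The pseudogenes themselves were low, from 0 to 50 counts in any single-end nascent library and 0 to 47 in any paired-end one. The plot of counts along the chromosome shows the gap.

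**Figure D1:**
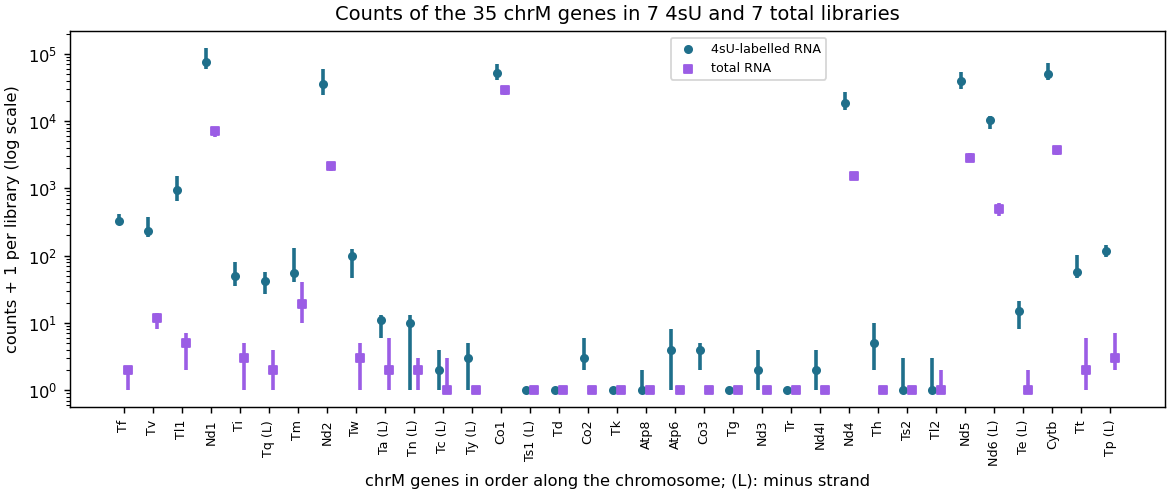
Counts plus 1 on a log axis for the 35 chrM genes in chromosome order, with the median (marker) and range (line) over the 7 nascent and over the 7 total libraries. The 11 genes from mt-Ts1 to mt-Nd4l lie at or near 0 counts in both, with at most 7 counts, between mt-Co1 and mt-Nd4.

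In nascent RNA, the chrM genes together took 11.6, 14.2 and 10.8% of all counts in WT 1, WT 2 and WT 3. In the KO they took 8.06 and 7.62% in the replicates of clone 1 and 7.07 and 8.99% in those of clone 2. All KO values were below all WT values, with means of 12.2% ± 1.75 (SD, n = 3) and 7.94% ± 0.809 (SD, n = 4), a ratio of 0.651. By exact permutation of the replicates, two-sided, p was 0.0571, which is the smallest p that 3 against 4 samples allow. The WT 2 library was the highest of all, and without it the log2 ratio changed from -0.62 to -0.50, still with no overlap.

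Total RNA held far less. The chrM genes took 0.729, 0.764 and 0.703% of counts in WT and 0.689, 0.666, 0.650 and 0.641% in the KO, means of 0.732% ± 0.0305 (SD, n = 3) and 0.661% ± 0.0210 (SD, n = 4). The ratio of KO over WT was 0.904, again without overlap and at the smallest p of the exact permutation test (p = 0.0571). The chrM share was thus 15.4 to 18.5 times as high in nascent as in total RNA in WT and 10.9 to 14 times as high in the KO. Over the 7 replicates the log2 share was lower in total RNA by 3.78 ± 0.287 (SD, n = 7), in 7 of 7 (exact sign-flip test, two-sided p = 0.0156, the smallest possible). These shares are relative to all other RNA in the library: a change in mitochondrial RNA per cell, in the number of mitochondria and in the amount of nuclear-encoded RNA cannot be told apart.

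**Figure D2:**
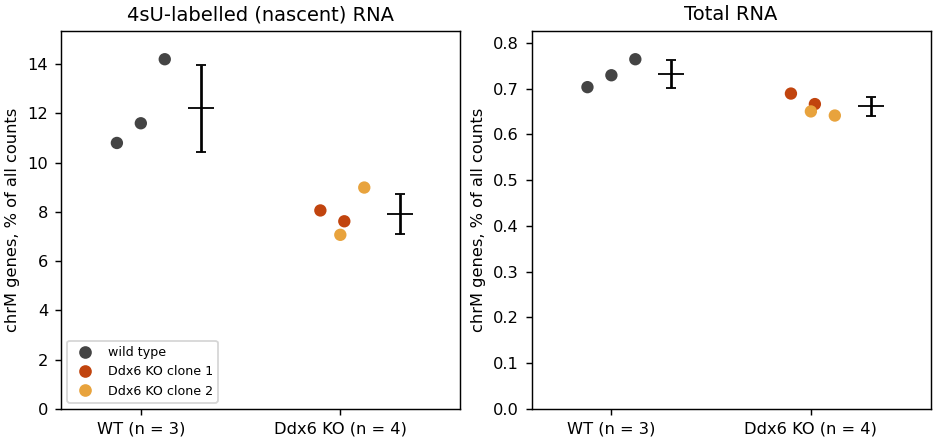
Share of all counts (%) assigned to chrM genes in nascent RNA (left) and total RNA (right), on separate scales starting at 0. Each point is a replicate, and the bar beside each group is the mean with its SD; the KO replicates lie below the WT replicates in both panels, with means of 12.2 and 7.94% on the left and 0.732 and 0.661% on the right.

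All 7 mRNAs that could be tested fell in the nascent RNA of *Ddx6* KO ESCs. Log2 fold changes ran from -1.02 for mt-Nd2 to -0.66 for mt-Nd6, with a median of -0.77 beside 0.00 for all genes tested, and each passed the test (edgeR quasi-likelihood, Benjamini-Hochberg adjusted p at most 0.000156). Of the 14518 genes tested, 21.0% were called lower in nascent RNA. The 4 KO replicates lay below the 3 WT replicates for 7 of 7 mRNAs, as they did for 21.2% of all genes.

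Among the complex I genes, mt-Nd1 stood at 31012, 40564 and 31146 CPM in nascent RNA of WT 1 to WT 3. The KO replicates gave 21490 and 21245 CPM (clone 1) and then 19012 and 24085 CPM (clone 2). WT 2 was the highest and no KO replicate reached the WT range (log2 fold change -0.88 ± 0.09 SE, adjusted p = 1.5e-06). mt-Nd2, its neighbor downstream, had 14331, 19917 and 12861 CPM in WT and 8980, 8487, 7814 and 10570 CPM in the KO. Its decline was the largest of the mRNAs (-1.02 ± 0.14 SE, adjusted p = 0.000156), and it was also the mRNA in which WT 2 stood furthest above WT 1 and WT 3. mt-Nd4 had 7577, 9027 and 6935 CPM in WT against 5500, 5093, 4730 and 6136 CPM (-0.75 ± 0.09 SE, adjusted p = 6.9e-06). mt-Nd5 had 16081, 18066 and 13561 CPM in WT against 11545, 10374, 9654 and 12895 CPM (-0.72 ± 0.10 SE, adjusted p = 4.0e-05). The groups were separate for both, although for mt-Nd5 the second replicate of clone 2 came close to WT 3.

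The single light-strand mRNA, mt-Nd6, had 4257, 3979 and 3443 CPM in WT and 2909, 2568, 2544 and 3300 CPM in the KO. It fell by 0.66 ± 0.09 (SE) on the log2 scale (adjusted p = 3.2e-05), with the second replicate of clone 2 just below WT 3. For complexes III and IV, mt-Cytb had 20655, 24922 and 20090 CPM in WT against 15263, 14186, 13376 and 16506 CPM, a change of -0.77 ± 0.07 SE (adjusted p = 2.1e-11). mt-Co1 had 21044, 24075 and 19438 CPM in WT against 14380, 13751, 13089 and 15750 CPM, a change of -0.80 ± 0.06 SE (adjusted p = 5.3e-16). In a comparison of the clones added after the data were seen, none of the 19 genes differed between clone 1 and clone 2 in nascent or total RNA at an adjusted p of 0.05 (edgeR; the lowest adjusted p was 0.706). A p that misses the threshold does not show that the clones were alike.

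The size of the change depended on the scaling. The TMM factors, which align the bulk of genes between libraries, gave WT and KO libraries different weights, and with library size alone the median change of all genes in nascent RNA moved from 0.00 to 0.21. On that scale the 7 mRNAs changed by -0.81 to -0.46, and 7 of 7 were still called lower. Of all genes, 5274 were then called higher and 1840 lower, instead of 2977 and 3054. With chrM genes left out of library size and TMM the range was -0.98 to -0.63.

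**Figure D3:**
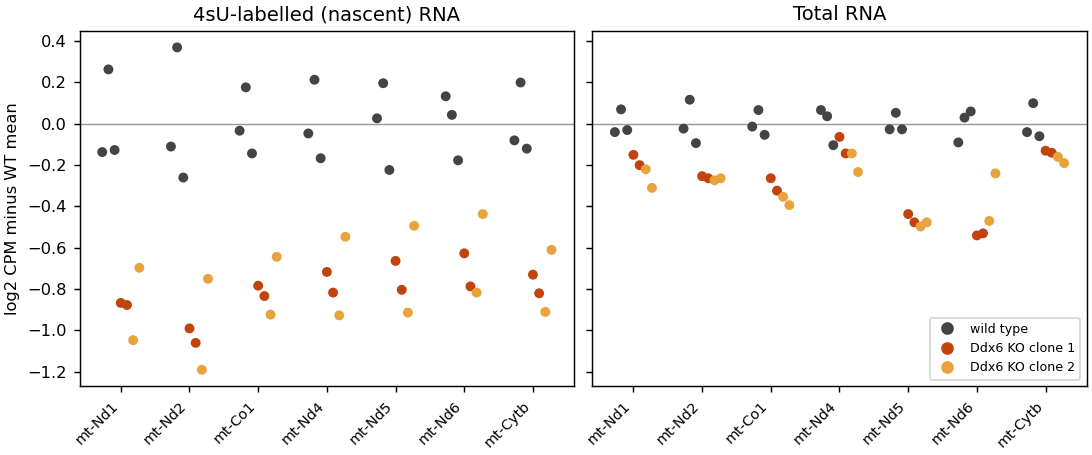
Log2 CPM (TMM-scaled, pseudocount 0.5 CPM) of each mRNA minus its WT mean, in nascent RNA (left) and total RNA (right), 1 point per replicate. In nascent RNA the KO points lie below the WT points for all 7 mRNAs, and in total RNA for all but mt-Nd4, at a smaller distance.

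Total RNA changed less. The median log2 fold change of the 7 mRNAs was -0.27, beside -0.10 for all genes, and 4 of the 7 were called lower, against 31.0% of all genes. The 4 were mt-Nd5, mt-Nd6, mt-Co1 and mt-Cytb. The KO replicates lay below the WT replicates for 6 of 7 mRNAs on the TMM scale, as for 32.0% of all genes, the exception being mt-Nd4. On plain CPM only 3 of 7 were separate, mt-Co1, mt-Nd5 and mt-Nd6, and the groups overlapped for mt-Nd1, mt-Nd2, mt-Nd4 and mt-Cytb. The share of all genes that separate on plain CPM was not computed, so no result is drawn from this tally.

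mt-Nd5 had 482, 503 and 474 CPM in WT total RNA and 401, 392, 382 and 391 CPM in the KO. The replicates of each genotype were close to each other and the groups clearly apart (log2 fold change -0.47 ± 0.10 SE, adjusted p = 0.0016). mt-Nd6 had 79.7, 85.3 and 86.8 CPM against 64.4, 64.7, 67.2 and 79.6 CPM, the second replicate of clone 2 lying just under WT 1 (-0.44 ± 0.12 SE, adjusted p = 0.00531). With library size alone, the mt-Nd6 difference no longer passed (adjusted p = 0.0591). mt-Co1 had 4583, 4777 and 4410 CPM against 4263, 4088, 3985 and 3917 CPM (-0.33 ± 0.06 SE, adjusted p = 5.1e-06).

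mt-Cytb was barely called. Its CPM were 540, 587 and 523 in WT and 557, 557, 542 and 539 in the KO, which overlap before scaling (-0.16 ± 0.07 SE, adjusted p = 0.0481), and the call was lost without any one of 6 of the 7 replicates, with DESeq2 and with limma-voom. mt-Nd1 (-0.22 ± 0.09 SE, adjusted p = 0.0658), mt-Nd2 (-0.27 ± 0.15 SE, adjusted p = 0.17) and mt-Nd4 (-0.14 ± 0.10 SE, adjusted p = 0.251) did not pass. mt-Nd4 had 251, 242 and 220 CPM in WT and 253, 240, 238 and 227 CPM in the KO. With library size alone the 7 mRNAs changed by -0.31 to 0.01 in total RNA, 2 were called lower, and mt-Nd4 turned to the other direction. Of the 14518 genes tested, 2817 were called lower and 4273 higher on that scale.

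The composition of the mitochondrial mRNA pool was next compared, as each gene's share of the counts of the 7 mRNAs, a measure that no scaling between libraries can move. In total RNA, mt-Co1 made up 63.0, 62.6 and 62.8% in WT and 62, 61.4, 61.3 and 61.2% in the KO. mt-Nd5 made up 6.63, 6.59 and 6.75% in WT and 5.83, 5.89, 5.88 and 6.11% in the KO. Both were lower in every KO replicate. The share of mt-Cytb was higher, with 7.42, 7.70 and 7.45% against 8.09, 8.37, 8.34 and 8.43%. The share of mt-Nd1 rose from 14.2% ± 0.170 (SD, n = 3) to 15.0% ± 0.232 (SD, n = 4) and that of mt-Nd4 from 3.25% ± 0.174 to 3.62% ± 0.0614, with no overlap for either. Shares of 1 pool are tied: where some are lower, others must be higher, so these differences are not separate results. Mean total CPM in WT and KO was 1038 and 994 for mt-Nd1, 550 and 549 for mt-Cytb, and 238 and 240 for mt-Nd4. In nascent RNA only mt-Nd2 (12.9% ± 1.16 in WT and 11.3% ± 0.332 in the KO) and mt-Nd4 (6.49% ± 0.0898 and 6.8% ± 0.081) did not overlap. Each of these 7 differences was at the smallest p of the exact permutation test (p = 0.0571, two-sided; adjusted p = 0.114 over 14 comparisons), which this number of replicates cannot take below 0.05.

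The ratio of total over nascent RNA is the measure that the study uses for relative mRNA stability. Within WT ESCs the 7 mRNAs that passed the filter, which stood above it in all 14 libraries, were lower in total than in nascent RNA (adjusted p at most 8.02e-11, edgeR), a call made for 38.5% of all genes. In the KO the 7 were again lower (adjusted p at most 5.09e-11), against 41.0% of all genes. The tRNAs are left out of this comparison, since 11 of the 12 reached 3 CPM in no total RNA library and so entered the test through their nascent level alone. The median log2 ratio of the 7 mRNAs was -5.05 in WT and -4.72 in KO, when the median gene stood at 0.07 and 0.02. Because both kinds of library are scaled to their own counts, a log2 ratio near 0 marks a typical gene and not equal numbers of molecules.

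One mRNA stood apart. The log2 ratio of mt-Co1 was -2.22, -2.34 and -2.14 in WT 1 to WT 3, and -1.71, -1.72, -1.66 and -1.97 in the KO. The other 6 mRNAs lay between -5.83 and -4.83 in the WT replicates and between -5.44 and -4.21 in the KO replicates, so that no value came near those of mt-Co1. In CPM, nascent mt-Co1 was 4.70 times its total level in WT, compared with 32.6 times for mt-Nd5 and 47.7 times for mt-Nd2 (from the mean log2 ratios). With only the single-end or only the paired-end nascent run, the mt-Co1 ratio in WT was -2.0 and -2.50. mt-Co1 was picked out after its values were seen and was given no test against the others.

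Levels were then set in order per length. Per 1000 windows of 50 bases without an annotated nuclear copy, the order in WT nascent RNA was mt-Nd1 (37710 CPM ± 6032 SD, n = 3), mt-Co1 (29438 ± 3221), mt-Cytb (19990 ± 2412), mt-Nd2 (17294 ± 4100), mt-Nd4 (15630 ± 2135), mt-Nd5 (9697 ± 1377) and mt-Nd6 (8283 ± 881). mt-Cytb overlapped with mt-Nd2, mt-Nd2 with mt-Nd4, and mt-Nd5 with mt-Nd6 over the WT replicates, whereas the other neighbors in this order did not overlap. The lead of mt-Nd1 depended on the run: it was 41412 against 26086 CPM for mt-Co1 in the single-end run, and 32745 against 33923 CPM, overlapping, in the paired-end run. Windows of 50 bases, the length of the single-end reads, were used for both runs. Whether they suit the paired-end run, and so the level of mt-Co1 there and in the sum, was not tested. In KO nascent RNA mt-Nd1 (23632 ± 2287) and mt-Co1 (19483 ± 1553) overlapped, and mt-Nd4 (10686 ± 1200) stood above mt-Nd2 (9871 ± 1292) with overlap. In WT total RNA on the same scale, mt-Co1 came first (6279 CPM ± 251 SD, n = 3), 5.49 times the level of mt-Nd1 (1143 ± 46). mt-Cytb (502 ± 30) and mt-Nd4 (473 ± 32) followed and overlapped, and below them mt-Nd2 (358 ± 27), mt-Nd5 (297 ± 9) and mt-Nd6 (179 ± 8) were all separate. Per kilobase of the whole gene, without allowing for copies, mt-Co1 in WT nascent RNA (13928 CPM ± 1524) lay below mt-Nd1 and mt-Cytb and overlapped with mt-Nd2 (15128 ± 3586), and it stood above all others in total RNA (2971 ± 119), and mt-Nd4 dropped to last in nascent RNA (5694 ± 778).

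**Figure D4:**
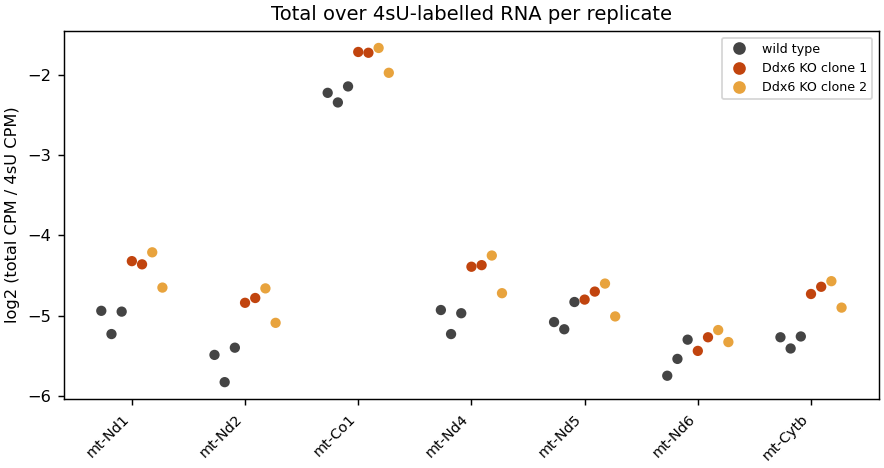
Log2 ratio of total over nascent CPM (TMM-scaled, pseudocount 0.5 CPM) for the 7 mRNAs, 1 point per replicate. mt-Co1 lies between -2.34 and -1.66 and the other mRNAs between -5.83 and -4.21, and the KO points lie above all WT points for 5 of the 7 mRNAs, but not for mt-Nd5 and mt-Nd6.

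The change of this ratio between genotypes was tested as the interaction of genotype and RNA type. It rose in the KO for 5 of 7 mRNAs, against 3.77% of all genes called higher, with a median of 0.61 over the 7 mRNAs and -0.09 over all genes. The KO replicates lay above the WT replicates for the same 5 mRNAs, as for 7.44% of all genes. For mt-Co1 the change was 0.47 ± 0.08 SE (adjusted p = 7.8e-05) and for mt-Cytb 0.61 ± 0.09 SE (adjusted p = 3.8e-05).

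The log2 ratio of mt-Cytb was -5.27, -5.41 and -5.26 in WT and -4.73, -4.64, -4.57 and -4.90 in the KO. That of mt-Nd1 was -4.94, -5.23 and -4.95 in WT and -4.32, -4.36, -4.21 and -4.65 in the KO (0.66 ± 0.13 SE, adjusted p = 0.00443). Both were higher in all 4 KO replicates. mt-Nd4 changed by 0.61 ± 0.14 SE (adjusted p = 0.00835). mt-Nd2 had the largest change, 0.75 ± 0.21 SE (adjusted p = 0.0419), but was called in the full set only narrowly: it did not pass without WT 1 or without the first or second replicate of clone 1 or the first of clone 2, with adjusted p values from 0.103 to 0.112, nor with either sequencing run or either clone alone.

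mt-Nd5 (0.25 ± 0.14 SE, adjusted p = 0.3) and mt-Nd6 (0.22 ± 0.15 SE, adjusted p = 0.407) did not pass. They lie side by side on opposite strands, with mt-Nd5 at chrM:11742-13565 on the plus strand and mt-Nd6 at chrM:13552-14070 on the minus strand, and their ends overlap. Counting used the strand of the reads. The log2 ratio of mt-Nd5 was -5.08, -5.17 and -4.83 in WT and -4.80, -4.70, -4.60 and -5.01 in the KO, and that of mt-Nd6 was -5.75, -5.54 and -5.30 against -5.44, -5.27, -5.18 and -5.33. Both sets overlap. With a term for each split sample, which pairs the nascent and total RNA split from the same sample, mt-Nd5 passed as well (adjusted p = 0.0166), making 6 of 7. All 7 estimates were above 0 under each of the alternatives tried.

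The strands were compared directly as the log2 ratio of mt-Nd6 counts to the summed counts of the 6 heavy-strand mRNAs. In nascent RNA it was -4.70, -5.10 and -4.92 in WT and -4.73, -4.83, -4.73 and -4.70 in the KO. WT 2 was the lowest and the groups overlapped (a difference of 0.16 with an exact permutation p = 0.286). The same ratio in total RNA was -6.50, -6.47 and -6.32 in WT and -6.73, -6.67, -6.58 and -6.31 in the KO, also overlapping (difference -0.14, exact permutation p = 0.286). Between RNA types the ratio was lower in total than in nascent RNA by 1.69 ± 0.240 (SD, n = 7) in 7 of 7 replicates (exact sign-flip test, p = 0.0156, the smallest possible). Most of this drop came with mt-Co1, which made up 17.8% of the mRNA counts in nascent and 62.8% in total RNA of WT ESCs. Without mt-Co1 in the heavy-strand sum, a setting added after the data were seen, the ratio was lower by 0.57 on the log2 scale (sign-flip p = 0.0156, exact). The mean log2 ratio of total over nascent RNA of mt-Nd6 in WT, -5.53, lay within the range of the other 5 heavy-strand mRNAs, -5.58 to -5.03.

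The tRNA genes gave between 1547 and 2990 counts per nascent library and 41 to 62 counts per total library, 0.658 to 0.710% of the chrM counts in nascent RNA and 0.0960 to 0.132% in total RNA. The nascent values sum both runs, whereas total RNA had the single-end run only. In single-end nascent reads the tRNA share was 0.477 to 0.563%. A count on a tRNA gene can come from a mature tRNA or from a longer precursor, and these were not separated. The leading genes were mt-Tl1 (tRNA-Leu), mt-Tf (tRNA-Phe) and mt-Tv (tRNA-Val), which border the rRNA genes at the start of the heavy-strand transcript, and mt-Tm (tRNA-Met) lies further downstream. Their first 30 bases are shown, since these short genes carry few sites at which the label can enter, with each uridine (written T) in capitals. They come from chrM:2676-2705, chrM:1-30, chrM:1025-1054 and chrM:3845-3874, all on the plus strand of mm10, and hold 6, 7, 10 and 7 such bases. Over their whole length the 4 genes hold 19, 18, 18 and 18 uridines in 75, 68, 69 and 69 bases.
mt-Tl1: aTTagggTggcagagccaggaaaTTgcgTa
mt-Tf: gTTaaTgTagcTTaaTaacaaagcaaagca
mt-Tv: caTagTgTagcTTaaTaTTaaagcaTcTgg
mt-Tm: agTaaggTcagcTaaTTaagcTaTcgggcc

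In nascent RNA, 10 of the 12 tested tRNAs fell in the KO and none rose, where 21.0% of all genes were called lower and 20.5% higher. The median log2 fold change was -0.77, the same value as for the mRNAs. Of the 12, mt-Te reached 3 CPM in 3 of 3 WT but only 2 of 4 KO nascent libraries, and mt-Ta in 3 of 3 but only 1 of 4. Both passed the filter through WT. They are part of this median, and mt-Te is 1 of the 10 called, so no support for a fall is drawn from these 2 genes. The 10 were mt-Tf, mt-Tv, mt-Tl1, mt-Ti, mt-Tm, mt-Tw and mt-Tt on the plus strand and mt-Tq, mt-Te and mt-Tp on the minus strand. mt-Tl1 had 381, 512 and 328 CPM in WT and 288, 253, 209 and 311 CPM in the KO (-0.82 ± 0.15 SE, adjusted p = 0.0013). mt-Tv had 94.6, 125 and 99.0 CPM against 64.6, 63.8, 60.9 and 75.6 CPM (-0.89 ± 0.10 SE, adjusted p = 5.4e-11). The WT and KO replicates were separate for both.

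mt-Tm fell most, with 31.9, 43.7 and 26.7 CPM in WT and 16.1, 18.3, 12.9 and 14.6 CPM in the KO (-1.35 ± 0.18 SE, adjusted p = 9.5e-09). mt-Tw (tRNA-Trp), with 44.6, 42.0 and 35.4 CPM against 20, 15.6, 15.5 and 27.2 CPM, followed closely (-1.24 ± 0.18 SE, adjusted p = 4.4e-08). These 2 genes flank mt-Nd2, the mRNA with the largest nascent change. mt-Tf had 125, 140 and 120 CPM against 99.5, 103, 102 and 96.6 CPM (-0.56 ± 0.08 SE, adjusted p = 1.2e-07). The call of mt-Tf rests on the paired-end run, since the single-end run held 55 of its counts and the paired-end run 2319, and with the single-end run alone it did not pass, although the estimate was larger (-1.09, adjusted p = 0.0703).

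The remaining calls were less secure. mt-Ti (-0.72 ± 0.22 SE, adjusted p = 0.0069), mt-Tq (-0.70 ± 0.23 SE, adjusted p = 0.0133), mt-Tt (-0.69 ± 0.23 SE, adjusted p = 0.0132) and mt-Te (-1.08 ± 0.38 SE, adjusted p = 0.0183) each lost the call without WT 2, with adjusted p values of 0.194, 0.111, 0.195 and 0.0901. mt-Tp changed by -0.47 ± 0.14 SE (adjusted p = 0.00423). With library size alone mt-Tq, mt-Te, mt-Tt and mt-Tp did not pass (adjusted p = 0.0768, 0.051, 0.0716 and 0.106). mt-Ta (-0.86 ± 0.44 SE, adjusted p = 0.114) and mt-Tn (0.12 ± 0.51 SE, adjusted p = 0.877) did not pass, and neither exceeded 12 counts in a library. The log2 ratio of minus-strand to plus-strand tRNA counts was -3.38 ± 0.163 (SD, n = 3) in WT and -3.12 ± 0.234 (SD, n = 4) in the KO (exact permutation p = 0.114).

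**Figure D5:**
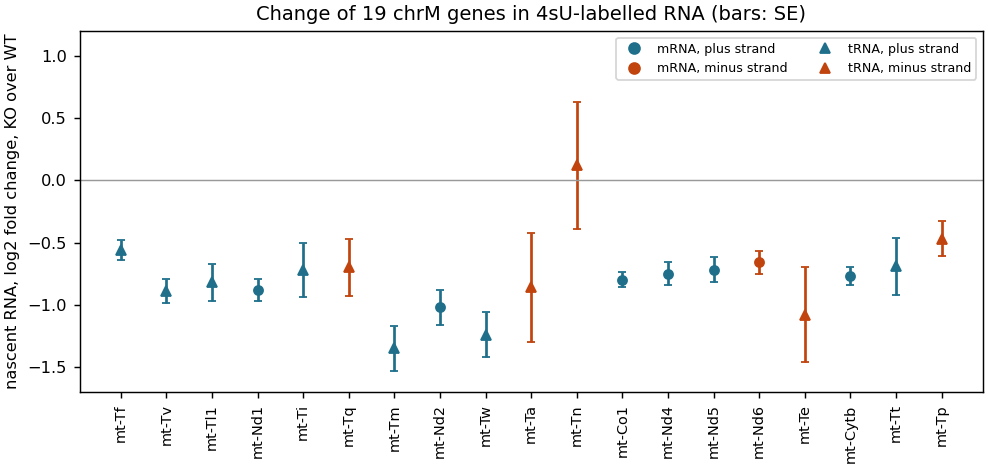
Log2 fold change of KO over WT in nascent RNA with its SE for the 19 tested chrM genes in chromosome order, mRNAs as circles and tRNAs as triangles, colored by strand. All but mt-Tn lie below 0, the mRNAs between -1.02 and -0.66. mt-Ta and mt-Te passed the filter through WT.

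In total RNA only mt-Tm could be followed among the tRNAs. It had 32, 40 and 22 counts in WT and 9, 17, 14 and 18 counts in the KO, that is 5.59, 6.11 and 3.13 CPM against 1.49, 2.32, 1.90 and 2.89 CPM. The groups did not overlap, and on the TMM scale the KO replicates lay below the WT replicates for 32.0% of all genes. mt-Tm was the only tRNA called (-1.33 ± 0.28 SE, adjusted p = 5.3e-05, edgeR), beside 31.0% of all genes called lower. It reached 3 CPM in 3 of 3 WT but 0 of 4 KO total libraries. It was thus measurable in total RNA through WT, and no result is drawn from its fall there. Its change in the ratio of total over nascent RNA was 0.02 ± 0.55 SE (adjusted p = 0.986). By total CPM the next highest tRNA was mt-Tv, with 7 to 13 counts per library, and no other tested tRNA exceeded 6 counts. mt-Tl1, at 647 to 1521 counts in nascent RNA, had 1 to 6 in total RNA, and mt-Tf, at 304 to 415, had at most 1. These nascent counts sum both runs, and total RNA had the single-end run only. In single-end nascent reads mt-Tl1 had 414 to 954 counts and mt-Tf 2 to 13. The methods describe rRNA depletion for total RNA only, and mt-Tl1, mt-Tf and mt-Tv border rRNA genes. Whether this bears on the low tRNA counts in total RNA was not tested. mt-Ty and mt-Th had no count in total RNA, and at most 4 and 9 counts in a nascent library. mt-Tc, mt-Ts2 and mt-Tl2 stayed at 3 counts or fewer in every library.

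The single-end and paired-end runs of the same nascent libraries gave different mitochondrial profiles. The chrM share was lower in the paired-end run in 7 of 7 libraries, by 0.11 on the log2 scale (means of 10.1 and 9.31%), and the tRNA share of chrM counts was higher, 0.477 to 0.563% in the single-end and 0.899 to 0.975% in the paired-end run. Among the mRNAs, mt-Co1 gained most, from 14.6 to 15.7% of chrM counts in the single-end run to 20.8 to 22.5% in the paired-end run, and mt-Nd1 went from a mean of 29.0 to 25.2%. Of the 9 shares compared, 8 moved the same way in 7 of 7 libraries (exact sign-flip test, p = 0.0156, the smallest possible; adjusted p = 0.0176), and the share of mt-Nd5 did not (p = 0.109). The KO difference was nearly the same in both runs, with log2 fold changes of the 7 mRNAs from -1.02 to -0.67 in the single-end and from -1.0 to -0.63 in the paired-end run.

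The nuclear genes that act on mitochondrial RNA were read from 5 lists with 50 genes, all of which were tested. In nascent RNA 4 were called higher and 9 lower, shares to be read beside 20.5 and 21.0% of all genes, with a median log2 fold change of -0.09. In total RNA 3 were higher and 20 lower (19.5 and 31.0% of all genes), with a median of -0.19 beside -0.10. In the ratio of total over nascent RNA 1 was higher and 5 lower (3.77 and 8.51% of all genes).

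Among 11 genes of mitochondrial transcription, 1 rose and 1 fell in nascent RNA (20.5 and 21.0% of all genes), and 5 fell in total RNA (31.0%). *Polrmt*, the polymerase, did not pass in nascent (0.29 ± 0.15 SE, adjusted p = 0.126) or total RNA (-0.05 ± 0.09 SE, adjusted p = 0.629). *Tfam*, which packages mtDNA and starts transcription, changed by -0.06 ± 0.08 SE in nascent RNA (adjusted p = 0.564) and fell in total RNA (-0.25 ± 0.07 SE, adjusted p = 0.0011). *Mterf3*, a regulator of mitochondrial transcription and ribosome assembly, rose in nascent RNA (0.52 ± 0.12 SE, adjusted p = 0.000291) and fell in the ratio of total over nascent RNA (-0.69 ± 0.15 SE, adjusted p = 0.00127). *Mterf1a* and *Mterf1b*, near-identical copies whose reads may be split between them, fell in total RNA by 0.70 and 1.37 on the log2 scale (adjusted p = 0.00699 and 0.00799). *Mterf1b* was near the floor there, at 1.78 ± 0.786 CPM in WT and 0.75 ± 0.277 CPM in KO (SD), where 3 counts are at most 0.524 CPM. The size of its fall is therefore uncertain.

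Of 20 genes for processing and stability of the precursors, 1 rose and 5 fell in nascent RNA (20.5 and 21.0% of all genes). In total RNA 9 fell (31.0% of all genes). *Lrpprc* fell in total RNA, from 271 ± 5.08 to 232 ± 7.22 CPM (SD; -0.38 ± 0.06 SE, adjusted p = 5.9e-08), and in the ratio (-0.31 ± 0.11 SE, adjusted p = 0.0478), and its partner *Slirp* fell in nascent (-0.33 ± 0.11 SE, adjusted p = 0.00891) and total RNA (-0.24 ± 0.08 SE, adjusted p = 0.0117). *Fastk* fell in nascent (-0.58 ± 0.11 SE, adjusted p = 9.6e-06) and total RNA (-0.74 ± 0.08 SE, adjusted p = 2.1e-11). *Fastk* belongs to a family of proteins that bind mitochondrial RNA, and its mitochondrial form is needed for the mt-Nd6 mRNA. *Angel2*, which removes cyclic phosphates from RNA ends, rose in nascent RNA (0.66 ± 0.12 SE, adjusted p = 9.9e-06). *Ddx28*, a helicase of mitochondrial ribosome assembly, fell in nascent RNA (-0.62 ± 0.09 SE, adjusted p = 2.9e-08) and rose in the ratio (0.56 ± 0.12 SE, adjusted p = 0.00104). 1110008L16Rik, the gene of the nuclease subunit of mitochondrial RNase P, fell in the ratio (-0.53 ± 0.16 SE, adjusted p = 0.0181).

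Of the 4 decay genes, *Endog*, a mitochondrial endonuclease, fell in nascent (-0.74 ± 0.30 SE, adjusted p = 0.0411) and total RNA (-0.54 ± 0.16 SE, adjusted p = 0.00472), and the other 3, among them *Pnpt1* and *Supv3l1*, passed in neither. Of 9 genes of tRNA maturation, *Trnt1*, which adds the CCA end to tRNAs, had the largest change of all 50 in total RNA among those that rose, from 76.9 ± 1.09 to 160 ± 8.26 CPM (SD; 0.90 ± 0.06 SE, adjusted p = 3.5e-18), and rose alike in nascent RNA (0.87 ± 0.07 SE, adjusted p = 2.1e-16). *Nsun3*, a methyltransferase for mitochondrial tRNA-Met, rose in total RNA (0.54 ± 0.18 SE, adjusted p = 0.00897). Of 6 genes of rRNA modification and ribosome assembly, 1 rose and 2 fell in total RNA (19.5 and 31.0% of all genes). *Mrm1* fell in both nascent (-0.47 ± 0.19 SE, adjusted p = 0.047) and total RNA (-0.60 ± 0.16 SE, adjusted p = 0.00155). *Tfb1m*, which methylates the small rRNA, fell in the ratio (-0.70 ± 0.23 SE, adjusted p = 0.0325).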

How the data were processed

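Total and 4sU-labeled RNA libraries of wild-type and *Ddx6* KO ESCs were analysed from the deposited gene counts. Per the labels and the methods, reads were trimmed (cutadapt 1.14) and aligned to mm10 and Gencode M14 (STAR 2.5.3a), only reads with a single position were kept, and the authors made the raw counts with featureCounts 1.5.3 by strand, on an annotation without rRNA. Labeling used 500 µM 4sU for 30 min.

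Counts of both runs of each 4sU library were summed. Members and gene lists were chosen with earlier results of these data known. All 13 mRNAs are named, tRNAs where they passed the filter or were highest or lowest in total RNA, and listed nuclear genes where called with a log2 change over 0.5, plus *Polrmt*, *Tfam*, *Lrpprc* and *Slirp*. Genes with 3 CPM in 3 of 14 libraries were tested (edgeR 4.0.16, R 4.3.3, TMM, robust quasi-likelihood, groups of genotype by RNA type, contrasts for nascent RNA, total RNA, their ratio and its change). The study's methods used limma; here limma-voom (limma 3.58.1) and DESeq2 1.42.0 were alternatives. On simulated counts of 14517 genes, 197 of 200 changed genes were recovered for the change of the ratio, with 12 unchanged genes called. The simulated log2 changes were larger than that of any mitochondrial mRNA (at most 0.75), and KO otherwise equaled WT. Recovery and false calls at the sizes reported here were therefore not measured. Shares were compared by exact permutation tests (scipy 1.17.1). Nascent and total RNA were split from the same sample, which pairs them by protocol; their deviations correlated at r = 0.00353 to 0.125 (n = 7). Gene names and sequences came from Gencode M21 on the same build. The 92 spike-in features held 0 counts. Columns of no sample numbered 0. Counting error limits tRNA values in total RNA.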

Additional observations from a re-analysis of the deposited data

How the results depend on the processing

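The direction of all 7 mRNAs in nascent RNA and in the change of the ratio held under every alternative run, and the 5 comparisons kept the number of chrM genes called within 1.5 times except in 3 cases. In total RNA 3 genes were called lower with library size only, beside 2817 of all 14518 genes tested. With the replicate number as a block (replicate block) 8 were called lower, beside 4239 of 14518. In the change of the ratio 3 were called higher with clone 2 only, beside 395 of 14031. The replicate numbers are shared by labels alone (deviations of same-numbered samples correlated at -0.0382 to 0.0886 in nascent and -0.0069 to 0.0521 in total RNA), and the block changed no other count beyond 1.5 times. Leaving out 1 replicate at a time gave 13 to 17 genes lower in nascent RNA, beside 2563 to 2877 of all genes, and the 13 was without WT 2. In total RNA 4 to 6 were lower, beside 4023 to 4201 of all genes. In the change of the ratio 4 to 5 were higher, beside 358 to 508. These fits tested 14305 to 14387 genes. In total over nascent RNA 19 were lower in both genotypes, beside 5141 to 5571 of all genes in WT and 5640 to 5890 in KO. The filter fixes this 19 for 11 tRNAs, and it is no sign of stability for them. With 1 clone only, the share of chrM in total against nascent RNA (-3.84 with clone 1, -3.88 with clone 2) and the mt-Nd6 ratio (-1.68 and -1.60) kept their direction with an exact sign-flip p = 0.0625, the smallest that 5 samples allow. mt-Nd4 in total RNA turned to 0.01 with library size only. mt-Tn in nascent RNA turned to -0.00253 with clone 2 only, to -0.39 without WT 1 and to -0.06 without the second replicate of clone 1, in a range of -0.39 to 0.62 over the replicates left out. The causes were not tested. Of 200 alternative values of the main comparisons 193 were classed as unchanged, where a count of genes was so classed if within 1.5 times. Of 1410 values of single genes 1350 were classed as unchanged. Both tallies include the total over nascent calls of the 11 tRNAs that the filter fixes, so they overstate how far the calls held. Nascent RNA, total RNA and their ratio are relative measures, and 2 clones, 3 WT replicates and the loss of reads with nuclear copies limit them. Adding the counts of annotated nuclear copies left the range of the mRNAs in nascent RNA at -1.02 to -0.67. This is no check of the loss, since reads that matched both places were counted for neither gene and could not be added back.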
